A study of Mus musculus with 9 samples.

Results

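Il7, Il15, Flt3l and Tslp are 4 genes for secreted cytokines on which lymphoid cells and their progenitors depend. They were taken by symbol as 4 of the 19938 genes that the arrays measured through a probe set with a single gene symbol, and each was represented by 1 probe set. The study sorted CXCL12-abundant reticular (CAR) cells, a perivascular stromal cell of bone marrow, as lineage-negative cells bright for green fluorescent protein, and profiled their RNA on Mouse Gene 1.0 ST arrays. All mice carried the Cxcl12+/gfp genotype, a knock-in that places the fluorescent protein at 1 Cxcl12 allele. There were 5 arrays of cells from animals treated with the cytokine G-CSF (granulocyte colony-stimulating factor) at 250 µg/kg per day and 4 arrays of cells from mice given phosphate-buffered saline (PBS), both over 5 days. The titles number the arrays as biological replicates without naming the animals behind them, and p-values therefore cover array-to-array spread, which may be technical. The source names speak of pre-B colonies and, for 4 of the G-CSF arrays (replicates 2 to 5), of an Hspa9 genotype; these names go against the titles and treatments, and the groups follow the titles.

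Interleukin-7 signals through Il7r paired with the common gamma chain and is required for B cell development in mouse marrow, where reticular stromal cells make it. Interleukin-15 is presented to neighbouring cells on Il15ra and acts through Il2rb and the common gamma chain, above all on natural killer cells and memory T cells. The Flt3 ligand, encoded by Flt3l, acts on early lymphoid progenitors and dendritic cell precursors through the receptor tyrosine kinase Flt3. Thymic stromal lymphopoietin, encoded by Tslp, shares Il7r with interleukin-7 and adds the chain Crlf2.

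The promoter of Flt3l is shown because interferon regulatory, NF-kB, STAT and EBF factors are described with their own levels, and because, of the 4 cytokines, 1 was matched in the RefSeq promoter table used here (GRCm38.p6), namely Flt3l. The window chr7:45136383-45136682, on the minus strand, runs from 250 bases before to 50 bases after the start of the gene, and is written 5′ to 3′ along the gene with a motif match in capitals.
Flt3l: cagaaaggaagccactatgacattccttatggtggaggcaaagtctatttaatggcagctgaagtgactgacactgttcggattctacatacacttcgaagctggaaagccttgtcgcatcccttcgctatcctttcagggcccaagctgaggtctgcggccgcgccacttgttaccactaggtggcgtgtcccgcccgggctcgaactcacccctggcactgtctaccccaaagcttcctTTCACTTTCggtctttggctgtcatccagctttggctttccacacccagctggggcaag
The motifs searched on both strands were TTCNNNGAA (STAT), GAAANNGAA (IRF), GGGANTTCC (NF-kB) and TCCCNNGGG (EBF). The capitals mark the single match, of the IRF motif on the opposite strand, in the last 9 bases before the start. Of 32851 promoter windows of the same length, 8.56% held the IRF motif, 8.30% the STAT motif, 6.56% the EBF motif and 1.68% the NF-kB motif. A match describes these letters and is not a measured site.

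The values are log2 robust multi-array average (RMA) intensities, a scale on which 1 unit is a doubling. They carry no detection call, and probe sets differ in how brightly they report a transcript, so levels of different genes are not ranked against each other. Where a probe set is called bright or dim, it is placed only against the median of all probe sets on its array, which is no detection call. The median probe set of an array lay between 5.12 and 5.22. In bulk RNA, fewer cells of a type and less RNA per cell cannot be told apart.

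The arrays fell into array sets along the first principal component of all probe sets (34.9% of the variance), and the labels do not name this split. Because the sets were read from the tested values themselves, fits below with the array set as a block may give p-values that are too small. Array set 1 held G-CSF replicates 1 to 3 with PBS replicates 1 and 2, and array set 2 held the other arrays. Within array set 2, PBS replicate 3 stood apart, at 56.5 on that component against 22.5 for the next array. G-CSF replicates 4 and 5 were the closest pair of arrays, with a standard deviation (SD) of 0.279 between their log2 values against 0.372 for the next closest pair. The sort label was set against markers: the CAR cell gene Cxcl12 was at 11.99 ± 0.07 in G-CSF arrays and 12.35 ± 0.11 in PBS arrays, and Lepr at 11.33 ± 0.26 and 11.55 ± 0.21 in the same order (SD, n = 5 and n = 4). Neutrophil transcripts, which a lineage-negative sort should remove, were also bright, with S100a8 at 12.51 ± 0.31 in G-CSF arrays and 11.66 ± 0.72 in PBS arrays, and S100a9 at 12.18 ± 0.26 and 11.51 ± 0.53 in the same order. These arrays therefore do not show the sorted cells to be free of neutrophil RNA.

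Il7 and Il15 fell after G-CSF, by about 2 log2 units each, whereas Flt3l and Tslp did not pass the test. A probe set was called at a Benjamini-Hochberg adjusted p under 0.05 in limma over all 21789 probe sets, and 1.62% of them were called. Both called cytokines were lower after G-CSF, the direction of 0.877% of all probe sets, and none of the 4 was among the 0.743% that were called higher. For the same 2 genes every G-CSF array lay below every PBS array, as it did for 2.46% of all probe sets. In the opposite direction 2.18% of probe sets were separated, with no member among them. The 4 genes had been picked with earlier results of these arrays known, so these counts describe them and do not test the choice.

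**Figure D1:**
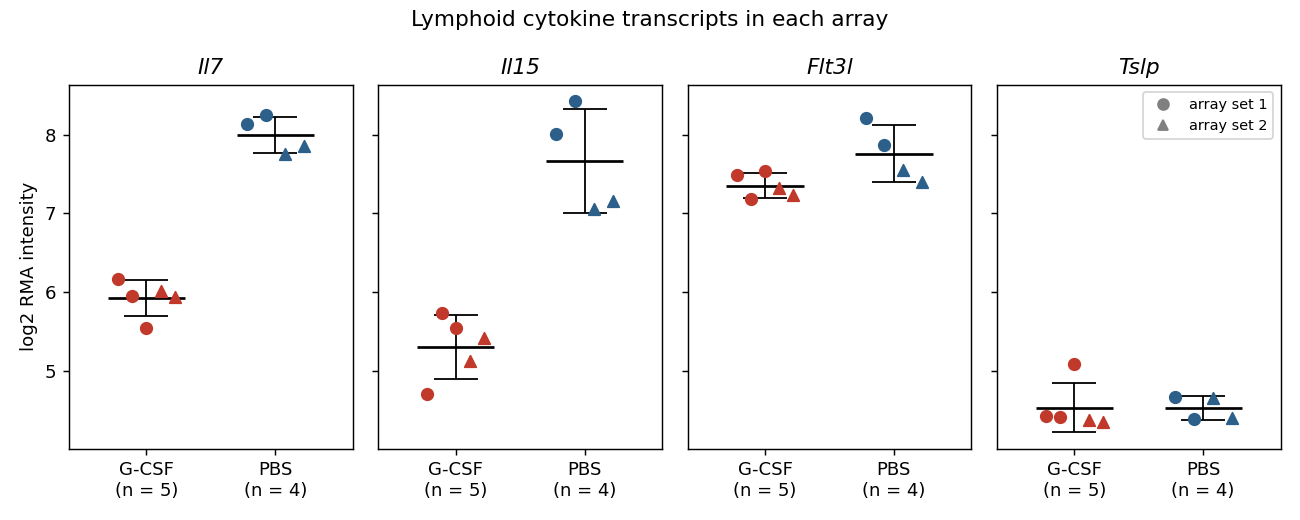
Log2 RMA intensity (vertical axis) of each cytokine in each array, with 5 G-CSF arrays on the left and 4 PBS arrays on the right of each panel; points are arrays (circles for array set 1, triangles for array set 2), long lines group means and bars 1 SD. For Il7 and Il15 the groups do not overlap, for Flt3l they overlap, and for Tslp G-CSF replicate 3 stands above the rest.

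Il7 stood at 6.17, 5.95, 5.54, 6.01 and 5.93 in G-CSF replicates 1 to 5, against 8.14, 8.24, 7.75 and 7.86 in PBS replicates 1 to 4. The groups were far apart relative to their spread: the highest G-CSF array lay 1.59 below the lowest PBS array, while the arrays of a group spanned 0.63 in G-CSF and 0.49 in PBS. The group means were 5.92 ± 0.23 after G-CSF (SD, n = 5) and 7.998 ± 0.23 after PBS (SD, n = 4). Il7 RNA after G-CSF was thus 23.7% of its PBS level, with a 95% interval of 18.4% to 30.4% (change -2.08, SE 0.17, limma adjusted p = 4.78e-05). This was the 14th largest fall among the 21789 probe sets. The Il7 call was kept under every alternative and every array left out that was run.

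Il15 stood at 4.70, 5.74, 5.54, 5.12 and 5.42 in G-CSF replicates 1 to 5, against 8.003, 8.42, 7.06 and 7.16 in PBS replicates 1 to 4. Its groups were also separated, with a gap of 1.32, but its arrays were more widely scattered than those of Il7, over 1.04 in G-CSF and 1.36 in PBS. The means were 5.30 ± 0.40 after G-CSF (SD, n = 5) and 7.66 ± 0.66 after PBS (SD, n = 4). Il15 intensity after G-CSF was 19.5% of its PBS level, with a 95% interval of 12.5% to 30.3% (change -2.36, SE 0.29, limma adjusted p = 0.00141). It ranked 12th among the falls of all probe sets. In G-CSF replicates 1 and 4, Il15 (4.70 and 5.12) lay below the median probe set of the array (5.13 and 5.19). Without a detection call, the percentage may overstate the RNA left if the probe set was near background, which was not tested. With the mean of neutrophil markers as a covariate the change was -2.57, but the call was lost (limma adjusted p = 0.0526; 3.33e-04 to 0.0302 under the other alternatives).

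Flt3l stood at 7.49, 7.18, 7.53, 7.32 and 7.23 in G-CSF replicates 1 to 5, against 8.21, 7.87, 7.55 and 7.40 in PBS replicates 1 to 4. The groups overlapped, since PBS replicate 4 lay below G-CSF replicates 1 and 3. The means were 7.35 ± 0.16 after G-CSF (SD, n = 5) and 7.76 ± 0.36 after PBS (SD, n = 4), a change of -0.41 (SE 0.18) with a 95% interval of -0.79 to -0.02. The change did not pass over all probe sets (limma adjusted p = 0.494; unadjusted p = 0.0409). The interval runs from 57.7% to 98.6% of the PBS level, so a fall to the size seen for Il7 or Il15 lies outside it. With 1 array left out the change ranged from -0.53 (without PBS replicate 4) to -0.26 (without PBS replicate 1). PBS replicate 1 held the highest value, 8.21.

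Tslp stood at 4.42, 4.41, 5.09, 4.37 and 4.35 in G-CSF replicates 1 to 5, against 4.67, 4.38, 4.65 and 4.40 in PBS replicates 1 to 4. All arrays except G-CSF replicate 3 lay within 4.35 to 4.67, below the median probe set of every array. The means were 4.53 ± 0.31 after G-CSF (SD, n = 5) and 4.52 ± 0.15 after PBS (SD, n = 4), a change of 0.00 (0.00455, SE 0.18, limma adjusted p = 0.999). The 95% interval, -0.38 to 0.39, corresponds to 77.0% to 131% of the PBS level. Without G-CSF replicate 3 the change was -0.13, again without a call.

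The changes of the cytokines were next compared with one another through the log2 difference of 2 genes within each array, by exact two-sided permutation tests over the arrays. With 126 assignments of 5 and 4 arrays the smallest p such a test can give is 0.00794, and p-values were adjusted over the 6 pairs. The change of Il7 minus that of Flt3l was -1.67 log2 units (95% interval -2.12 to -1.24, exact permutation p = 0.00794, adjusted 0.0119), and minus that of Tslp it was -2.08 (-2.86 to -1.48, with the same p-values). The change of Il15 minus that of Flt3l was -1.95 (-2.75 to -1.24), and minus that of Tslp it was -2.36 (-3.31 to -1.44), again with the same p-values. Il7 and Il15 thus each fell more than Flt3l. Tslp was dim in both groups and has no detection call, so a fall of Tslp could not be seen if its probe set was at background, and the differences from Tslp do not show that Tslp RNA fell less. All 4 differences passed whichever array was left out. In each of them every G-CSF array lay below every PBS array, so these passes were fixed in advance and add no support. Between Il7 and Il15 no difference in change was shown (0.28, interval -0.62 to 1.19, exact permutation p = 0.437, adjusted 0.437). That interval is wide, so the 2 changes are not shown to be alike. Flt3l and Tslp differed by -0.41 (-0.88 to 0.04, exact permutation p = 0.0794, adjusted 0.0952), and this difference passed only without PBS replicate 3 (-0.52, exact permutation adjusted p = 0.0429).

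At baseline, the PBS arrays of the array sets differed most for Il15. Il15 averaged 8.21 in PBS arrays of array set 1 and 7.11 in those of array set 2, a gap of 1.10 that 2.68% of all probe sets matched or exceeded. The gap was 0.56 for Flt3l, 0.38 for Il7 and -0.00 for Tslp, against a median of -0.11 over all probe sets (2 arrays in each set, no test). After G-CSF the gaps were 0.06 for Il15, 0.12 for Flt3l, -0.08 for Il7 and 0.28 for Tslp.

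The change of Il15 was -2.89 within array set 1 and -1.845 within array set 2, and it passed in each set alone (limma adjusted p = 0.00877 and 0.0302). The change of Il7 was -2.30 within array set 1 and -1.84 within array set 2, and it also passed in each (limma adjusted p = 0.00455 and 0.0259). Flt3l was at -0.64 and -0.20 and Tslp at 0.12 and -0.16 in the same sets, without a call. The difference between the sets was tested as an interaction in limma. For Il15 it was 1.04 (SE 0.42, unadjusted p = 0.0323) and did not pass over all probe sets (adjusted p = 0.864), nor did that of Il7 (0.47, adjusted p = 0.864).

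**Figure D2:**
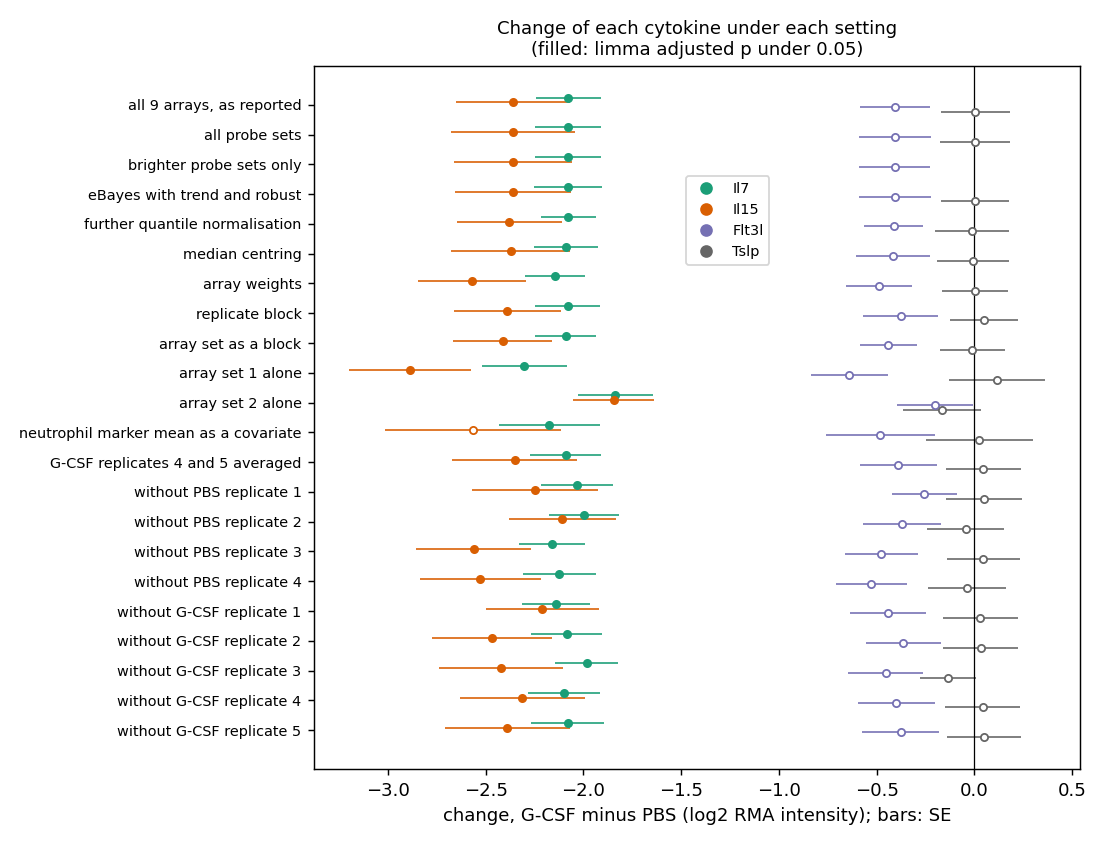
Change in log2 RMA intensity, G-CSF minus PBS (horizontal axis), of each cytokine under every processing setting and with each array left out; points are fitted changes, bars 1 SE, and filled points have a limma adjusted p under 0.05. Il7 and Il15 lie between -1.84 and -2.89 throughout, Flt3l between -0.20 and -0.64, and Tslp on both sides of 0; Tslp has no point among brighter probe sets because it is dimmer than the median.

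Markers of cell types that the sort should remove were measured beside the cytokines. The 12 neutrophil markers were all higher after G-CSF on average, by a median of 1.06, and 1 of them passed (Cd177, a neutrophil surface protein, limma adjusted p = 0.0274). This count depended on the arrays used. It was 5 without PBS replicate 2, where S100a8, S100a9, Ltf and Lcn2 also rose (limma adjusted p = 0.0248, 0.0448, 0.0368 and 0.0140 in that order), and 3 without G-CSF replicate 2 (Cxcr2 and Lcn2 added) or with the array set as a block (Mmp8 and Cxcr2 added). It was 0 without any one of PBS replicates 1 and 4 or G-CSF replicates 1, 4 and 5 (adjusted p of Cd177 up to 0.0885). Their summed intensity was 13714 to 21832 in G-CSF arrays and 7981 to 19713 in PBS arrays. PBS replicate 2 had the highest neutrophil mean of its group, 9.64, within the G-CSF range of 9.13 to 9.88, and also the highest Il7 (8.24) and Il15 (8.42) of all 9 arrays. With the neutrophil mean as a covariate the change of Il7 was -2.18 (limma adjusted p = 0.00516). The SE in that fit was 0.26 for Il7 and 0.45 for Il15. The neutrophil mean itself went with treatment, at 9.67 ± 0.31 after G-CSF and 8.71 ± 0.65 after PBS (SD, n = 5 and n = 4). Neither this fit of 9 arrays nor the 1 array PBS replicate 2 can therefore tell neutrophil RNA and treatment apart.

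**Figure D3:**
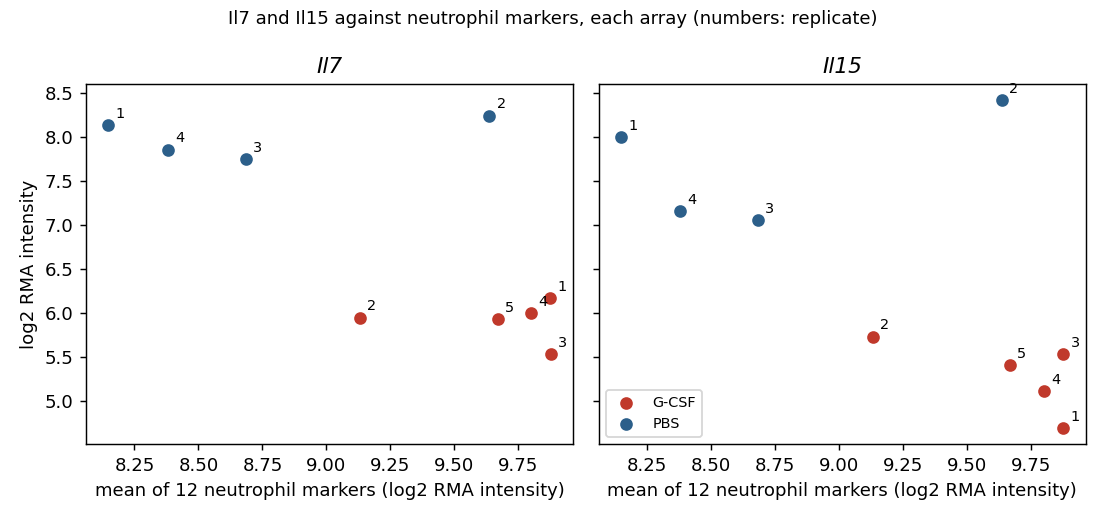
Log2 RMA intensity of Il7 and Il15 (vertical axes) against the mean log2 RMA intensity of 12 neutrophil markers (horizontal axes), 1 point per array, with 5 G-CSF and 4 PBS arrays numbered by replicate. PBS replicate 2 has a neutrophil mean of 9.64, within the G-CSF range of 9.13 to 9.88, with Il7 at 8.24 and Il15 at 8.42.

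B cell precursors respond to Il7, and 1 of their 9 measured markers fell (Cd79a, part of the B cell receptor complex, limma adjusted p = 0.0227). All 9 changes were below 0 (48.7% over all probe sets), with a median of -0.58. This was not particular to B cell precursors, since all 7 measured erythroid markers were also below 0, with a median of -0.59. Cd79a was dim, with group means of 3.38 after G-CSF and 4.46 after PBS, below the median probe set. The Cd79a call was lost with PBS replicate 1, 2 or 4 or G-CSF replicate 1, 2, 3 or 4 left out (adjusted p up to 0.0748), and Cd79b passed as well without G-CSF replicate 5 (limma adjusted p = 0.0452). The summed intensity of the B cell precursor markers was 186 to 257 in G-CSF arrays and 280 to 419 in PBS arrays. The 11 macrophage and dendritic cell markers summed to 947 to 1977 in G-CSF arrays and 1033 to 2249 in PBS arrays (1 fell, Cd74, of MHC class II loading), and the 10 T and NK cell markers to 231 to 293 and 167 to 337 in the same order (0 passed in limma, 0 at an unadjusted p under 0.05). Without PBS replicate 3, 3 macrophage markers fell (C1qb and Mrc1 added, limma adjusted p = 0.0274 and 0.0308), and with the array set as a block 2 did (C1qb added, 0.0183). Without PBS replicate 2 the NK cell gene Nkg7 rose by 1.71 (limma adjusted p = 0.00407). The 7 measured erythroid markers summed to 192 to 241 in G-CSF arrays and 265 to 806 in PBS arrays (1 fell, Car1), and the 10 endothelial markers to 274 to 332 and 279 to 357 in the same order (0 passed in limma, 2 at an unadjusted p under 0.05). The 9 pericyte and smooth muscle markers summed to 638 to 865 in G-CSF arrays and 414 to 461 in PBS arrays (2 rose, Acta2 and Rgs4). With the array set as a block Tagln rose too (limma adjusted p = 0.0190), as did the endothelial gene Emcn (0.0471). The 7 measured osteoblast markers summed to 3449 to 3970 in G-CSF arrays and 4534 to 6158 in PBS arrays, with Col1a1 higher and Phex lower. The calls of Cd74, Car1 and Rgs4 were lost without PBS replicate 1, PBS replicate 4 or G-CSF replicate 1 (without PBS replicate 1 at adjusted p = 0.0647, 0.0617 and 0.0509 in that order). Cd74 likewise failed with PBS replicate 2 or any of G-CSF replicates 2 to 4 dropped, and Rgs4 with replicate 3 of either group dropped. A summed intensity mostly follows its brightest probe sets. Among macrophage markers this was Lyz2 (10.2 after G-CSF, 9.92 after PBS), and among osteoblast markers Ibsp (11.57 and 12.08 in that order). Of the 11 macrophage and dendritic cell markers, 7 had a change below 0, with a median of -0.15. RMA gives no true zero, so no marker can be called absent. The part of these cell types in the changes of Il7 and Il15 was not tested, and the fit with the neutrophil covariate cannot separate it from treatment.

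Some markers of the sorted cells themselves also differed between the groups. Of 12 CAR cell markers (Kitl, Vcam1 and some transcription factors also belong to other lists here), 7 fell, with a median change of -0.80. The count was 4 without PBS replicate 1, PBS replicate 2 or G-CSF replicate 1, where Kitl, Ebf3 and Grem1 no longer passed (without PBS replicate 1 at limma adjusted p = 0.0760, 0.0569 and 0.0607 in that order). Their summed intensity was 15746 to 16928 in G-CSF arrays, against 24229 to 27658 in PBS arrays, with no overlap. The mean of their log2 levels was 10.05 ± 0.01 after G-CSF (SD, n = 5) and 10.81 ± 0.09 after PBS (SD, n = 4). The fitted changes of Il7 (-2.08) and Il15 (-2.36) were larger than that of each of the 12 markers, of which Adipoq (-1.69) and Lpl (-1.63) changed most. Whether the cytokines fell more than these markers was not tested. The 5 markers not called were Foxc1 (-0.88), Cxcl12 (-0.36), Lepr (-0.22), Pdgfrb (0.01) and Pdgfra (0.28). For Pdgfra every G-CSF array lay above every PBS array, as for 2.18% of all probe sets.

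The receptor chains of these cytokines were measured in the same cells, where 5 of the 6 chains listed had a probe set. In limma, 0 of 5 passed, and 1 had an unadjusted p under 0.05. That chain was Il7r, shared by the receptors for interleukin-7 and thymic stromal lymphopoietin, at 3.34 ± 0.12 after G-CSF and 3.85 ± 0.25 after PBS (SD, n = 5 and n = 4; change -0.51, limma adjusted p = 0.167). Its levels lay below the median probe set, and it is also 1 of the B cell precursor markers above. Crlf2, the specific chain of the Tslp receptor, was at 0.46 (limma adjusted p = 0.632) and Il2rb, the signalling chain for interleukin-15, at -0.15 (limma adjusted p = 0.883).

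Of the JAK kinases and STAT factors that cytokine receptors use, 6 of 8 were measured and 1 rose. Jak2, a kinase used by the receptors for thymic stromal lymphopoietin and many other cytokines, was at 8.53 ± 0.18 after G-CSF and 7.31 ± 0.23 after PBS (SD, n = 5 and n = 4), a 2.32-fold rise (change 1.22, SE 0.16, limma adjusted p = 0.00162). It passed whichever array was left out, at an adjusted p of up to 0.00696. Stat5b and Stat5a, the factors activated by interleukin-7 and interleukin-15, were at -0.55 and -0.63 (limma adjusted p = 0.222 and 0.395). Stat5a passed with the array set as a block (-0.70, limma adjusted p = 0.0279).

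Of 30 further interleukin ligand genes measured, 0 passed in limma and 5 had an unadjusted p under 0.05, and the median change was 0.06, against 0.01 over all probe sets. The share of all probe sets at that unadjusted p was not counted, so the 5 are not read as an excess. The 3 with the smallest p were Il17d (-1.01, limma adjusted p = 0.178), Il6 (1.17, adjusted p = 0.371) and Il1b (0.77, adjusted p = 0.440); Il6 and Il1b are inflammatory cytokines. Il17d passed without PBS replicate 3 (-1.29, limma adjusted p = 0.0412) and, together with Il34 (-1.002, limma adjusted p = 0.0185), with the array set as a block (-1.09, limma adjusted p = 0.00747). Il6 passed without G-CSF replicate 3 (1.57, limma adjusted p = 0.0404). Among the ligands related to interleukin-7 and interleukin-15 through their receptors or cytokine family, 0 of 5 passed in limma and 0 had an unadjusted p under 0.05; Il9 was at 0.19, Il21 at 0.14 and Il4 at -0.06.

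Of 15 other stromal genes that support lymphoid progenitors, 3 fell and 0 rose, with a median change of -0.00. Igf1, a growth factor for B cell progenitors, fell by 1.15 (limma adjusted p = 0.00166). Vcam1, an adhesion molecule that holds progenitors to stroma, fell by 1.07 (limma adjusted p = 0.00134). Kitl, the ligand of the receptor Kit, fell by 0.74 (limma adjusted p = 0.0231). Each of these fitted falls was smaller than those of Il7 and Il15, a difference that was not tested. Leaving out PBS replicate 1 or 2, or G-CSF replicate 1, 2, 4 or 5, ended the call of Kitl (adjusted p up to 0.0793).

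Among transcription factors of CAR cells, 4 of 9 measured fell and 0 rose. The 9 changes were all below 0 (48.7% over all probe sets), with a median of -0.66. Pparg, the main adipogenic factor, fell by 1.51 (limma adjusted p = 4.38e-04) and Ebf1, a factor of stroma and of B cells, fell by 0.91 (limma adjusted p = 0.00402). Cebpa fell by 0.77 (limma adjusted p = 0.0143) and Ebf3 fell by 0.66 (limma adjusted p = 0.0194). Cebpa no longer passed once PBS replicate 1 was left out (adjusted p = 0.0514). Ebf3 no longer passed with PBS replicate 1, 2 or 4 or G-CSF replicate 1 or 3 left out (adjusted p up to 0.0613). Without PBS replicate 1 the count of falls was thus 2. Foxc1 passed with the array set as a block (-0.96, limma adjusted p = 0.00871).

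Interferon regulatory factors and NF-kB subunits, among the known activators of Il15, were measured for 8 of 9 genes. In limma 0 of 8 passed, and 3 had an unadjusted p under 0.05. They were Nfkb2 (0.57, adjusted p = 0.171), Irf7 (-0.46, adjusted p = 0.409) and Irf1 (-0.46, adjusted p = 0.524).

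**Figure D4:**
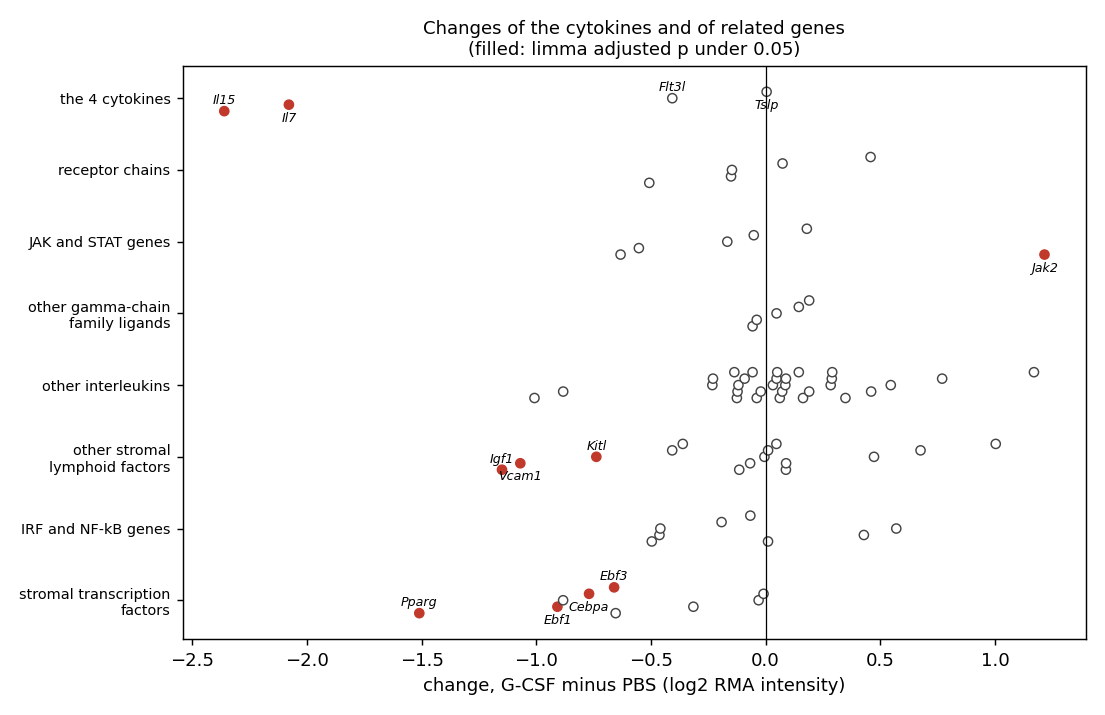
Change in log2 RMA intensity, G-CSF minus PBS (horizontal axis), of the 4 cytokines and of the measured genes of 7 related lists (rows); each point is a gene over 5 G-CSF and 4 PBS arrays, filled where the limma adjusted p is under 0.05. Il15 (-2.36) and Il7 (-2.08) lie to the left of every gene of the other lists, and Jak2 (1.22) is the filled point to the right of 0.

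The genes whose pattern over the 9 arrays was most like that of each cytokine were ranked by Pearson correlation of log2 intensities among 18709 named genes. For Il7 the 5 most alike were Lpl, a lipoprotein lipase (r = 0.990), Ptch1, a Hedgehog receptor (0.988), Csf1, the macrophage growth factor (0.986), Chrdl1, a secreted BMP antagonist (0.985), and Cnnm1 (0.984). All 5 fell after G-CSF, with changes from -2.59 to -1.01. With each group centred on its own mean, so that the difference of group means no longer enters, their correlations with Il7 were 0.449 to 0.714. The split into array sets stays in such centred values, and its part was not tested. For every cytokine the 5 genes were picked by their correlation over these same 9 arrays. Their direction of change and their centred correlations therefore follow at least in part from that choice, and support nothing further.

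For Il15 they were Ehd3 (r = 0.987), an endocytic trafficking protein, Vit (0.976), Tnfrsf19 (0.9748), a receptor of the tumour necrosis factor family, Itga8 (0.974), an integrin chain, and Slc6a6 (0.965), the taurine transporter. All 5 fell after G-CSF, with changes from -1.35 to -1.003. After centring, the correlations with Il15 were 0.702 to 0.922, the highest for Ehd3. None of these genes was among the 5 most like Il7. Lists this short among 18709 genes need not overlap, so this does not show that the 2 patterns differ.

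For Flt3l they were Rfx5 (r = 0.945), Plekhg1 (0.937), Cd83 (0.935), Echdc2 (0.932) and Alg6 (0.926), with correlations of 0.866 to 0.931 after centring. Of these genes Cd83 fell (-1.56, limma adjusted p = 0.0296), and the others were not called, with changes from -1.11 (Echdc2) to -0.36 (Rfx5). Rfx5 is a regulator of MHC class II genes and Cd83 a surface marker of mature dendritic cells. For Tslp they were BC147527 (r = 0.950), Utp25 (0.937), Atg4d (0.936), Mir452 (0.917) and Olfr107 (0.907), whose changes lay between -0.19 and 0.31. Tslp varied little outside G-CSF replicate 3, and the part of that array in these correlations was not tested.

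Among the cytokines themselves, the correlations after centring each group were 0.24 for Il7 with Il15, 0.34 for Il7 with Flt3l, 0.43 for Il15 with Flt3l, 0.42 for Flt3l with Tslp, 0.08 for Il15 with Tslp and -0.69 for Il7 with Tslp. G-CSF replicate 3 had the lowest Il7 (5.54) and the highest Tslp (5.09) of its group. These values describe 9 arrays and carry no test.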

How the data were processed

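Per the submitters' processing notes, the authors made the deposited intensity values with RMA in Affymetrix Expression Console; its version is not given in the sources used here. On a linear scale, the deposited intensity values ran from 1.73 to 15673.1, so log2 was taken before any test. RMA normally gives all arrays one distribution, but the interquartile range of these log2 values varied from 2.45 (PBS replicate 3) to 2.99, and changes are relative to other transcripts. Of 35553 probe sets, 21789 had 1 gene symbol in the platform table and were tested; 1621 had several and 12143 none, and were used only in an alternative.

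The groups were compared with limma 3.58.1 (lmFit, eBayes, two-sided, no covariates) in R 4.3.3 on all 9 arrays, after the steps were tested on simulated data. Gene lists are described by counts and medians. Counts of list genes at an unadjusted p under 0.05 come without the share over all probe sets and only describe the lists. Members, lists, motifs and alternatives were chosen with earlier results of these data known. Named genes were the 4 cytokines, called list genes, the 3 smallest p-values of each pathway list, and the 5 most alike genes per cytokine; others were chosen after their values were seen (Foxc1, Il34, Adipoq, the named cell type markers). A gene with several probe sets used the brightest. Cross-hybridisation was not tested. The number of arrays limits the precision.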

Additional observations from a re-analysis of the deposited data

Results flagged for a closer look

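Tslp in G-CSF replicate 3, at 5.085 on the log2 scale, stood far from the other 4 G-CSF arrays (4.35 to 4.42). Its gap to the nearest of them was 0.90 of the group's whole range, above the critical ratio of 0.71 for 5 samples. About 1 in 20 such groups would pass this ratio by chance, and 8 groups were examined (4 genes in 2 groups).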

How the results depend on the processing

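The falls of Il7 and Il15 kept their direction under every alternative run. The Il7 call held under all of them; the Il15 call was lost with the neutrophil mean as a covariate (-2.566, limma adjusted p = 0.0526; cause not tested). Flt3l was never called. Tslp, at 0.00455, turned to -0.0108 after further quantile normalisation, -0.00673 after median centring, -0.0106 with the array set as a block and -0.164 in array set 2 alone, and ran from -0.135 (without G-CSF replicate 3) to 0.0513 with 1 array left out. Flt3l minus Tslp ran from -0.522 to -0.308 with 1 array left out.

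Over all probe sets, 353 were called. The count was 181 with all probe sets tested, 598 with the array set as a block, 202 in array set 1, 59 in array set 2, 47 with the neutrophil covariate and 210 (without PBS replicate 1) to 318 (without PBS replicate 3) with 1 array left out, with 222 when G-CSF replicate 1 and 224 when G-CSF replicate 4 was dropped. With the replicate number as a block it was 180. Same-numbered arrays deviated together in 3 of 4 pairs (correlations 0.14 to 0.35), each within an array set. The third pair (-0.28) crossed the array sets. Differently numbered arrays of an array set deviated together as well (0.41 for PBS replicate 4 with G-CSF replicate 5). The numbers were therefore not taken to pair the arrays. Il7 was at -2.08 and Il15 at -2.39 with that block, both called.

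Tslp has no value among brighter probe sets, and each cytokine has 1 probe set, so averaging probe sets changes nothing. Arrays left out for other genes and list counts were added after seeing the data.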
